A study of Mus musculus with 16 samples.

Results

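Methylthioadenosine (MTA) given together with dextran sulfate sodium (DSS) was set against DSS given alone in the colon of the mouse. All samples were whole colon of male C57Bl/6J mice, and 3 treatments were labelled: DSS with MTA (6 samples), DSS (6 samples) and untreated control (4 samples). The samples were chosen by their titles, and the contrast set 12 of the 16 against each other. The 4 controls placed the baseline level of each gene and also entered the shared estimate of spread behind every p-value. Their median SD over features was 0.16, against 0.21 with DSS + MTA and 0.21 with DSS. With only the 12 treated arrays in the fit, 0 features were called at a limma adjusted p under 0.05. The labels give no dose, route, duration or age and do not say that each sample is a separate animal, so p-values measure the spread between these samples. Each sample was read on 1 Illumina bead array, and every value below is the log2 of the intensity that the authors deposited.

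DSS is a sulfated polysaccharide that damages the lining of the colon, after which gut bacteria reach the tissue, neutrophils and monocytes enter, and stromal cells and macrophages release chemokines and matrix-degrading proteases. MTA is a sulfur-containing nucleoside formed when cells make polyamines. The phosphorylase encoded by Mtap splits it into adenine and a sugar phosphate that feeds the methionine salvage pathway, and MTA is also an inhibitor of protein methyltransferases. The comparison asked which genes of the inflamed colon had another level when MTA was supplied.

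The arrays had been brought to a common scale before deposit, with medians of 112.012 to 112.22 intensity units (log2 6.81). Of the colon and muscle wall markers, Zg16 and Acta2 were bright on all arrays. Zg16, a goblet cell lectin, lay at 14.75 to 15.09 with DSS + MTA, 14.8 to 15.14 with DSS and 14.61 to 15.12 in controls, and Acta2, smooth muscle actin, at 14.91 to 15.1, 14.94 to 15.27 and 14.72 to 14.94 in the same order. The colon epithelium marker Slc26a3 was dimmer, at 6.93 to 8.19, 6.19 to 7.89 and 6.79 to 7.58 in that order. Hoxd13, a marker of the hindgut, was too dim to pass the filter. Genes of neighbouring tissues were read as well, among them Adipoq, an adipocyte hormone, at 7.7 to 11.7 with DSS + MTA, 6.26 to 10.31 with DSS and 9.24 to 11.7 in controls. Correlations between arrays of the same group ran from 0.91 to 0.991, and 3 arrays stood apart. DSS + MTA replicate 2 had the lowest weight that limma gave any array (0.363, where an average array has about 1) and read Cdx2, the intestinal epithelial transcription factor, at 8.68, against 12.2 to 13.23 on the other DSS + MTA arrays. DSS + MTA replicate 3 read the brown-fat genes Cidea at 11.02 and Ucp1 at 10 and the T cell gene Cd3d at 9.79, while DSS replicate 2 had the next lowest weight (0.381). Ucp1 was picked after its values had been seen.

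Among the genes with the largest falls were the stromelysins Mmp3 and Mmp10, secreted proteases that cut proteoglycans and basement membrane proteins and that lie on the same chromosome. Their promoters are shown because both genes fell. The sequences come from RefSeq (build GRCm38.p6), where the promoter of Mmp3 covers chr9:7445572-7445871 and that of Mmp10 covers chr9:7502092-7502391, both on the plus strand, each 300 bases long and running past the start site by 50 bases. Capitals mark the letters TGANTCA, which transcription factors of the AP-1 family can bind.
Mmp3: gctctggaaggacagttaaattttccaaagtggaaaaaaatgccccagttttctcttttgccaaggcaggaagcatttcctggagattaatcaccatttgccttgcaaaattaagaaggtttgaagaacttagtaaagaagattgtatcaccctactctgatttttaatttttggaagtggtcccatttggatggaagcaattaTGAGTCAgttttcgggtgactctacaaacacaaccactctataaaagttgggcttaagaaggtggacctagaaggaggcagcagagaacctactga
Mmp10: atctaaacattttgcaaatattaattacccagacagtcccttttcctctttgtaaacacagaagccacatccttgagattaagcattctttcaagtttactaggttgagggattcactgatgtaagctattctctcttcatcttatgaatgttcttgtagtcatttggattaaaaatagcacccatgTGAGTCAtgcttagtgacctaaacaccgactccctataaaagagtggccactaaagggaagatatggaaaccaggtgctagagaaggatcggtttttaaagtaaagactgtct
Each promoter held TGAGTCA once, with its first base at -46 from the start site in Mmp3 and at -63 in Mmp10. Neither held, on either strand, GGGA followed after 4 bases of any kind by CC, a pattern of NF-kappaB sites. Searched on both strands, the letters TGANTCA were in 6.76% of the promoters of the 7355 tested genes that had one in the table. They were in 5 of the 23 promoters found for genes that fell (21.7%; Mmp3, Mmp10, Gja1, Selp and Cp) and in 0 of the 4 found for genes that rose. The NF-kappaB pattern was in 30.5% of the tested genes' promoters and in 7 of 23 (30.4%) of those of genes that fell. Such a match describes letters, and the arrays did not measure binding. Promoters of the chemokines Ccl2, Ccl7 and Ccl11 were not used here.

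In all, 37 of 9771 tested features (0.379%) differed between DSS + MTA and DSS at a limma adjusted p under 0.05, where a feature is the brightest probe of a gene. Of these, 31 fell (0.317%), 30 of them with a gene symbol, and 6 rose (0.0614%), 5 of them with a symbol. The genes that fell were led by matrix proteases, monocyte and eosinophil chemokines, an endothelial selectin and acute-phase products. Those that rose were led by Gsta3 and Dcxr, enzymes of detoxification and carbonyl reduction. The falls were 1.47-fold to 4.52-fold, and 18 of them were larger than 2-fold, as 0.563% of all features were on the lower side. The rises were smaller, at 1.28-fold to 2.59-fold. Over all features the median difference was 0.01 on the log2 scale, 47.4% of the differences were below 0, and the lowest and highest 1% of differences lay beyond -0.84 and 0.57. Adjusted p-values of the 37 features lay between 0.0118 and 0.04998, and 1461 features (15.0%) had an unadjusted p under 0.05.

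**Figure D1:**
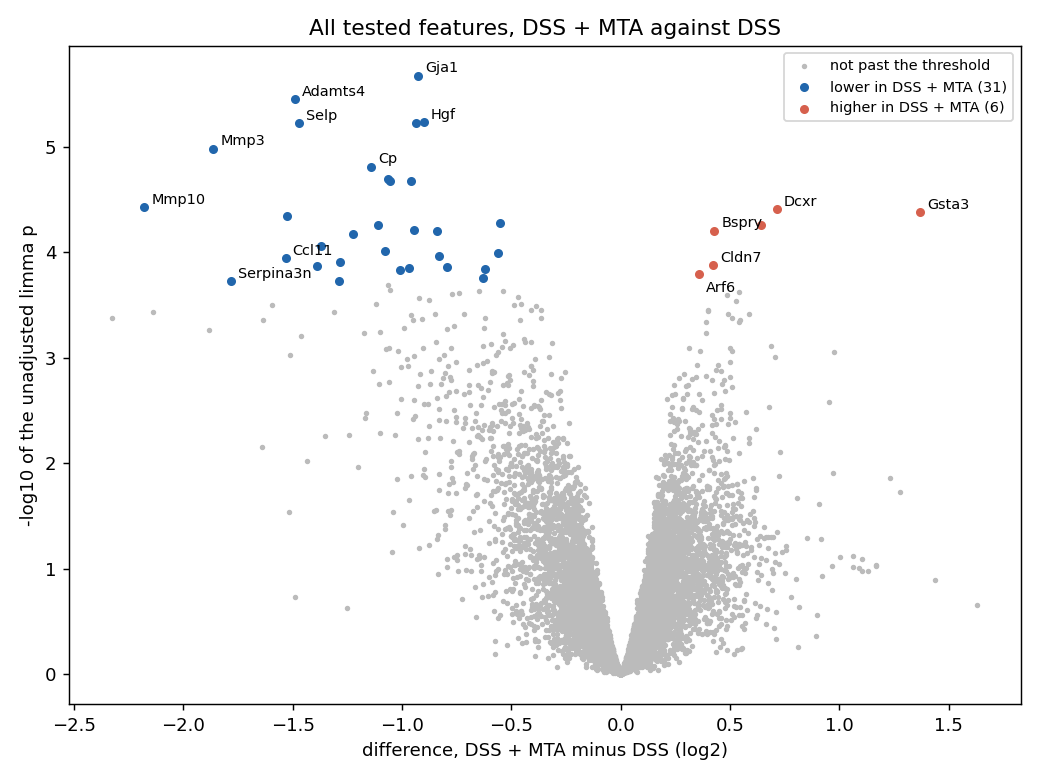
Each point is 1 of the 9771 tested features, with the difference DSS + MTA minus DSS on the log2 scale across and the negative log10 of the unadjusted limma p up. The 31 features past the threshold on the lower side reach -2.18 (Mmp10), and the 6 on the higher side reach 1.37 (Gsta3).

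All 6 DSS + MTA arrays lay below all 6 DSS arrays for 20 of the 31 features that fell, as they did for 0.501% of all features. They lay above all DSS arrays for 4 of the 6 that rose, as for 0.409% of all features. Averaged over the 31 features that fell, the level above the control mean was 0.36 to 1.14 on the DSS + MTA arrays (1.10 on replicate 2 and 0.36 on replicate 3), against 1.65 to 2.2 on the DSS arrays. These genes chose themselves by the same contrast, so that separation is a description. The mean with DSS + MTA was above the control mean for 29 of the 31, and the exceptions were Scara5 and Emcn. For 15 of the 31 the control mean lay below the array median, and for 4 (Chil3, Hgf, Inhbb and Adamts1) the DSS + MTA mean did too. Intensities that low hold an unknown part of background, so the sizes of these falls depend on it.

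Among genes past the threshold, the matrix-degrading proteases Mmp10 and Mmp3 held the largest falls. The members of each list are those that passed the brightness filter, which used the mean over the arrays of all groups, so a gene bright only in treated colons could pass through them, and the lists' counts and medians describe bright members. Of 14 measured matrix metalloproteinases and their inhibitors (19 listed), 2 fell and 12 lay below 0, with a median difference of -0.80. Mmp10, the second stromelysin, had a lowest, median and highest value of 8.13, 10.51 and 10.78 with DSS + MTA, against 11.77, 12.11 and 12.82 with DSS, and 6.25, 6.85, 6.69 and 6.7 in the 4 controls. The lowest DSS + MTA values were on replicates 3 and 2, and the groups did not overlap. Its difference was -2.18 ± 0.39 (SE, limma adjusted p = 0.0309), or 4.52-fold. Mmp3, the first stromelysin, which can also activate other metalloproteinases, had 9.77, 10.07 and 11.4 with DSS + MTA, against 11.37, 12.03 and 13.16 with DSS, and 6.2, 6.55, 6.09 and 6.59 in controls. Replicate 5 of DSS + MTA just reached the lowest DSS array, and the other 5 lay below. The difference was -1.86 ± 0.29 (adjusted p = 0.0171), and 2 further probes of the gene gave -1.93 and -1.97. Mmp13, collagenase 3, was at 11.08 ± 1.19 with DSS + MTA and 12.96 ± 0.55 with DSS (SD, n = 6 each), a difference of -1.88 ± 0.43 that missed the threshold (adjusted p = 0.0655). Since each sample was a piece of whole colon, fewer cells of a type and less RNA per cell cannot be told apart in these or any later values.

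Of 9 measured Adam and Adamts genes (19 listed), 2 fell and all 9 lay below 0, with a median of -0.30 (-0.075 without the brightness filter, -0.13 without DSS replicate 2, -0.17 without DSS + MTA replicate 4 or 6). Adamts4, a protease that cuts the proteoglycans aggrecan and versican, had 7.06, 7.67 and 8.23 with DSS + MTA, against 8.74, 9.07 and 9.82 with DSS, and 6.17, 6.23, 6.25 and 6.31 in controls. The groups did not overlap, and the difference was -1.49 ± 0.21 (adjusted p = 0.0118). Adamts1, which cuts the same kind of substrate, was at 6.61 ± 0.30 with DSS + MTA and 7.66 ± 0.42 with DSS, a fall of -1.05 ± 0.18. A second Adamts1 probe, too dim to pass the filter, gave -0.25, so its probes differ in size. Adamts5, a related aggrecanase, was at -0.42 ± 0.15 (adjusted p = 0.215).

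**Figure D2:**
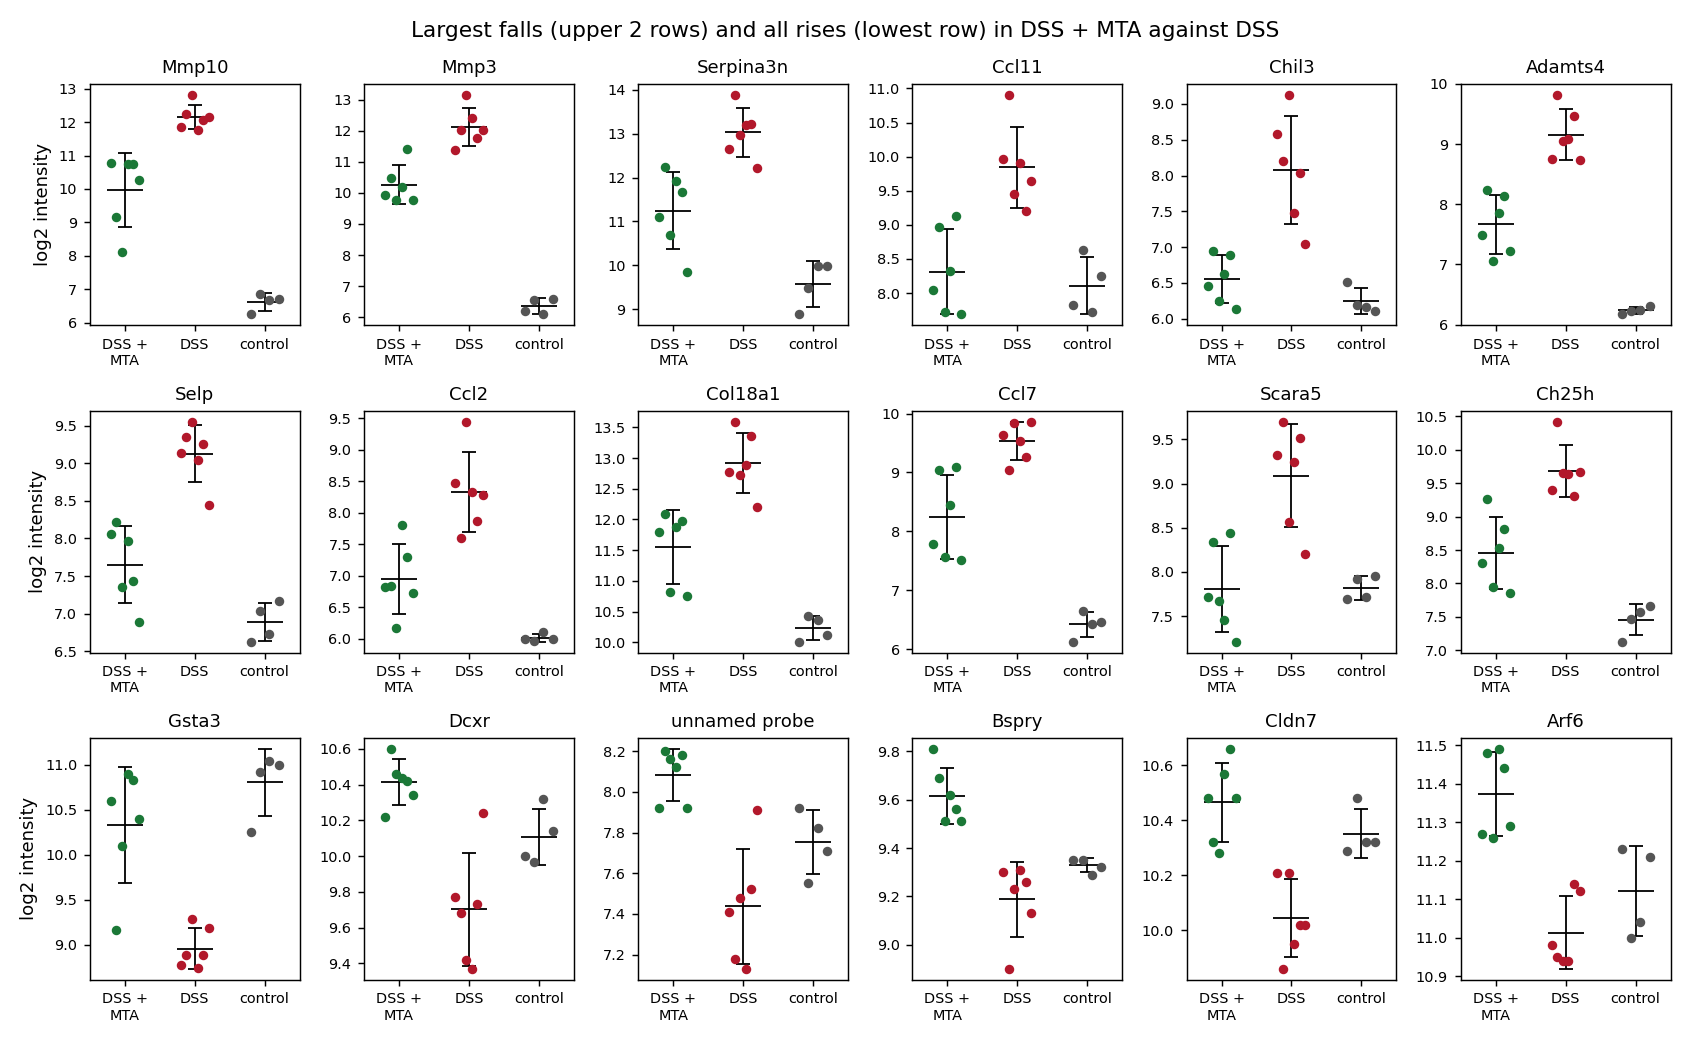
Log2 intensity on each array for the 12 genes with the largest falls (upper 2 rows) and the 6 features that rose (lowest row). Points are arrays of DSS + MTA (6), DSS (6) and control (4), with horizontal lines at the mean and bars of 1 SD. Mmp10 stands at 8.13 to 10.78 with DSS + MTA, against 11.77 to 12.82 with DSS, and Gsta3 at 9.16 to 10.9 against 8.74 to 9.28.

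Genes of the structural matrix lay below 0 in each of 3 lists, and Col18a1 fell. All 12 measured collagens (18 listed) were below 0, with a median of -0.82, and 1 fell. Col18a1, a basement membrane collagen whose end fragment is endostatin, had 10.75, 11.84 and 12.09 with DSS + MTA, against 12.2, 12.83 and 13.59 with DSS, and 10.01, 10.42, 10.36 and 10.11 in controls. Every DSS + MTA array was below every DSS array, and the difference was -1.37 ± 0.26 (adjusted p = 0.0393). Other probes of Col18a1 gave -0.44 and -0.95. Col4a1, a basement membrane collagen, was at -0.97 ± 0.25 and Col3a1, a fibrillar collagen, at -1.11 ± 0.29, with adjusted p of 0.0913 and 0.103. The 12 genes of collagen folding and cross-linking were all below 0 (15 listed, median -0.46, and -0.25 without the filter) and none passed. Of them 6 had an unadjusted p under 0.05, as 8.45% of all features had on the lower side. Lox, which cross-links collagen and elastin, stood at 7.58 ± 0.54 with DSS + MTA and 9.21 ± 0.98 with DSS, a difference of -1.64 ± 0.37 (adjusted p = 0.0587). Of 19 measured matricellular and adhesive matrix genes (28 listed), all were below 0 (median -0.59) and none passed. An unadjusted p under 0.05 was found for 10 of them, beside the same 8.45% of all features. The smallest p were those of the laminin chain Lamb1 (-0.59 ± 0.14), tenascin C, Tnc (-1.01 ± 0.26), and Ccn4 (-0.63 ± 0.17). Tnc had 5 further probes, which gave -0.07 to -0.99.

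Chemokines that draw monocytes and eosinophils fell. Of 14 measured CC chemokines (19 listed), 3 fell, 9 were below 0 and 5 above it, with a median of -0.53 (-0.29 without the filter, and -0.31 without DSS + MTA replicate 6). Each of these 3 calls was lost in 12 to 14 of the 16 fits with 1 array omitted. Ccl11, or eotaxin, which recruits eosinophils, had 7.7, 8.18 and 9.13 with DSS + MTA, against 9.2, 9.78 and 10.91 with DSS, and 7.82, 8.63, 7.72 and 8.25 in controls. Replicates 2 and 5 of DSS + MTA lay above the controls and all 6 lay below every DSS array, with a difference of -1.53 ± 0.30 (adjusted p = 0.0433) and -0.95 on another probe. Ccl2, the main chemokine of inflammatory monocytes, had 6.17, 6.83 and 7.8 with DSS + MTA, against 7.6, 8.3 and 9.44 with DSS, and 5.99, 5.97, 6.11 and 5.99 in controls. Replicate 4 of DSS + MTA overlapped the lowest DSS array, and the difference was -1.39 ± 0.28 (adjusted p = 0.0441). Ccl7, which shares receptors with Ccl2, had 7.52, 8.12 and 9.09 with DSS + MTA, against 9.04, 9.58 and 9.86 with DSS, and 6.13, 6.65, 6.43 and 6.47 in controls. It differed by -1.29 ± 0.27 (adjusted p = 0.04998), with 5 of 6 DSS + MTA arrays below the lowest DSS array.

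Among 10 measured CXC chemokines (14 listed), which include the neutrophil attractants, 9 were below 0 and none passed. Their median was -0.82, against -0.36 without the brightness filter, and 5 of the 10 had an unadjusted p under 0.05. Cxcl1 was at 9.48 ± 0.67 with DSS + MTA and 10.65 ± 0.80 with DSS (difference -1.17 ± 0.34, adjusted p = 0.139), Cxcl5 at -0.83 ± 0.26 and the stromal chemokine Cxcl12 at -0.82 ± 0.22, with other Cxcl12 probes between -0.85 and 0.03. The Cxcl12 probe at 0.03 was too dim to pass the filter. The 10 of 23 listed inflammatory cytokines that passed the filter were below 0 (median -0.71, and -0.18 without the filter) and 1 fell. That was Inhba, the subunit that forms activin A, at 7.83 ± 0.54 with DSS + MTA and 8.94 ± 0.20 with DSS (SD, n = 6 each), a difference of -1.11 ± 0.20 (adjusted p = 0.0309). Inhbb, the subunit of activin B, fell by -0.94 ± 0.14 (adjusted p = 0.0118). Il1b, which drives fever and neutrophil recruitment, was at -1.31 ± 0.29 (adjusted p = 0.0587) and Il11, a cytokine of stromal cells, at -1.51 ± 0.37 (adjusted p = 0.0828). Of 13 cytokine receptors none passed, 10 lay below 0 and 3 above it, with a median of -0.13 and a highest difference of 0.17. The oncostatin M receptor Osmr was at -0.81 ± 0.21, Tnfrsf1a at -0.49 ± 0.15 and Il1r1 at -0.40 ± 0.11. Another Il1r1 probe, too dim to pass the filter, gave 0.01. Of 19 NF-kappaB subunits and target genes none passed, 14 lay below 0 and 5 above it, with a median of -0.14 and a highest difference of 0.27. On the lower side 5 had an unadjusted p under 0.05, as 8.45% of all features had. Those with the smallest p were Tnfaip2 at -0.83 ± 0.25, Nfkb2 at -0.32 ± 0.11 and Ier3 at -0.49 ± 0.18.

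Among acute-phase and host-defence products, Serpina3n and Cp fell. Of 15 measured acute-phase proteins and antiproteases (24 listed), 2 fell, and the median was -0.42 (-0.81 without DSS + MTA replicate 2). Serpina3n, an inhibitor of serine proteases such as granzyme B, had 9.85, 11.39 and 12.23 with DSS + MTA, against 12.22, 13.09 and 13.89 with DSS, and 8.88, 9.48, 9.99 and 9.98 in controls. Replicate 2 of DSS + MTA reached the lowest DSS array, and the difference was -1.78 ± 0.37 (adjusted p = 0.04998). Cp, or ceruloplasmin, the copper-carrying ferroxidase, was at 8.28 ± 0.26 with DSS + MTA and 9.42 ± 0.47 with DSS, a fall of -1.14 ± 0.19 (adjusted p = 0.0209) without overlap. Lcn2, which binds bacterial siderophores, was at 8.18 ± 0.99 and 10.32 ± 1.04 in the same order, a difference of -2.14 ± 0.47 that missed the threshold (adjusted p = 0.0587). Wfdc12, a small protein of the WAP antiprotease family, had the lowest difference of the list, -2.33 ± 0.52, and missed the threshold too (adjusted p = 0.0587). It was named after its values had been seen. Of 12 measured antimicrobial proteins (17 listed), 11 were below 0 (median -0.49, -0.11 without the filter and -0.31 without DSS + MTA replicate 2) and none passed. The calprotectin subunits S100a8 and S100a9 were at -1.35 ± 0.42 and -1.44 ± 0.49 (adjusted p = 0.161 and 0.2001). All 9 measured complement genes (18 listed) were below 0 (median -0.41, -0.13 without the filter, -0.61 without DSS + MTA replicate 2 and -0.27 without replicate 6) and none passed, with C1s1 at -0.69 ± 0.19 and C4b at -0.79 ± 0.29. Of 10 genes of plasminogen activation and coagulation none passed, 7 lay below 0 and 3 above it, with a median of -0.265 and a highest difference of 0.34. The urokinase gene Plau was at -0.91 ± 0.22, its receptor Plaur at -0.40 ± 0.11 and thrombomodulin, Thbd, at -0.59 ± 0.18.

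In the lists of leukocyte markers, Clec4d and Chil3 fell and no lymphocyte gene passed the test. The 9 of 22 listed neutrophil markers that passed the filter were below 0, with a median of -0.81, against -0.11 without the filter. Of them 1 fell, Clec4d, a lectin receptor of myeloid cells, at 6.93 ± 0.43 with DSS + MTA and 7.90 ± 0.39 with DSS (difference -0.97 ± 0.19). The formyl peptide receptor Fpr2 was at -1.06 ± 0.26 and the gelatinase Mmp9 at -0.81 ± 0.20, with adjusted p of 0.0772 and 0.0828. Of 19 measured macrophage and monocyte markers (26 listed), 16 were below 0 and 1 fell, with a median of -0.19 that moved to -0.39 without DSS + MTA replicate 2, to -0.30 without its replicate 5, to -0.11 without its replicate 6 and to -0.09 without DSS replicate 5. Chil3, a chitinase-like protein of activated macrophages and neutrophils, had 6.14, 6.54 and 6.95 with DSS + MTA, against 7.05, 8.12 and 9.13 with DSS, and 6.51, 6.19, 6.16 and 6.11 in controls. With DSS + MTA its values overlapped the controls and lay below every DSS array, and the difference was -1.52 ± 0.27 (adjusted p = 0.0309), with -0.55 and -1.74 on other probes. Broader macrophage genes did not pass, with lysozyme, Lyz2, at -0.84 ± 0.40 and the mannose receptor Mrc1 at -0.67 ± 0.44 (adjusted p = 0.336 and 0.472). Hdc, the histamine-forming enzyme and the 1 measured gene of the mast cell and eosinophil list, was at -0.77 ± 0.28 (adjusted p = 0.224).

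The 7 of 21 listed T and NK cell markers that passed the filter were above 0 (median 0.53, 0.20 without the filter and 0.13 without DSS + MTA replicate 3) and none passed the test. Their mean above control was -0.31 to 1.67 on the DSS + MTA arrays, the highest on replicate 3, and -0.43 to -0.02 on the DSS arrays. B and plasma cell markers had a median of 0.13, which was -0.17 without DSS + MTA replicate 3, and MHC class II genes a median of 0.15, which was -0.10 without that array. None of these 8 and 12 genes passed. Of 27 interferon-induced genes none passed, the median was -0.02 (-0.08 without DSS replicate 2, 0.08 without DSS replicate 4, with the same sign in 13 of the 16 fits with 1 array omitted), and members lay on both sides, such as the immunoproteasome subunits Psmb9 (0.47 ± 0.17) and Psmb10 (0.34 ± 0.12) and the GTPase Gbp5 (-0.71 ± 0.27).

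**Figure D3:**
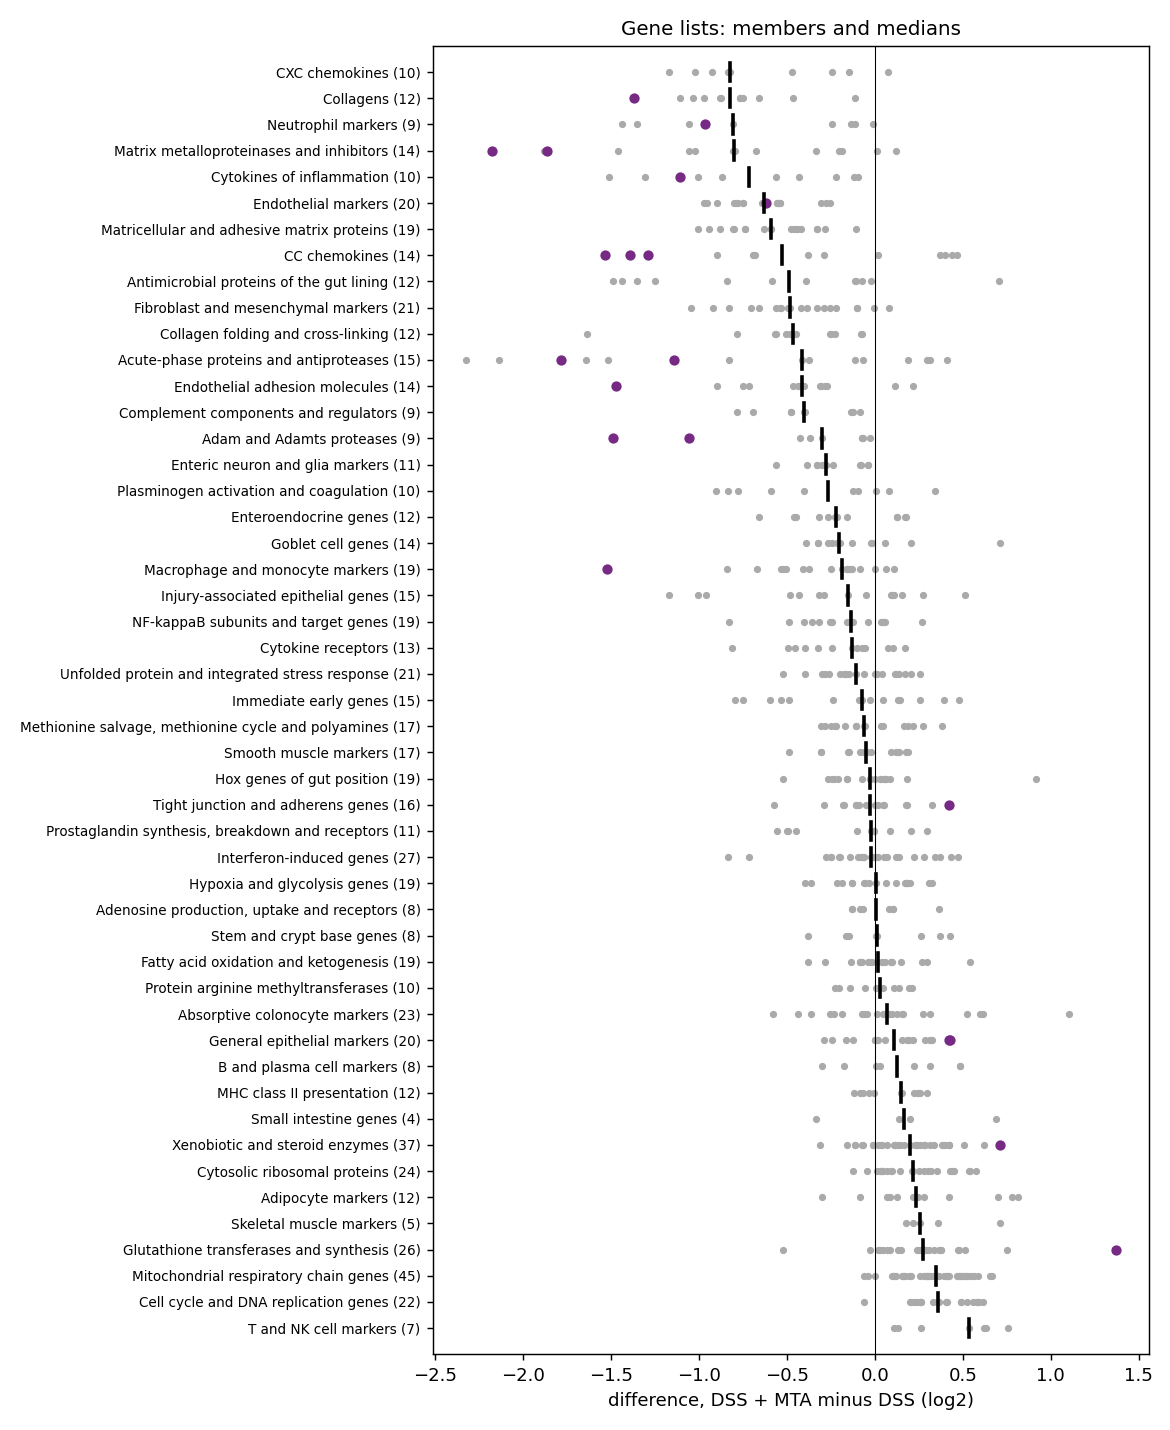
Each row is a gene list with the number of measured members in brackets, and each point is a member's difference DSS + MTA minus DSS on the log2 scale. Black bars are list medians and large purple points are members past the threshold. Members are those that passed the brightness filter. Medians run from -0.82 (CXC chemokines and collagens) to 0.53 (T and NK cell markers), where the median of all features is 0.01.

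Of the blood vessel genes, Selp and Emcn fell. Of 14 measured endothelial adhesion molecules (16 listed), 12 were below 0 (median -0.42), 10 had an unadjusted p under 0.05 and 1 fell. Selp, or P-selectin, on which leukocytes roll before they leave the vessel, had 6.89, 7.69 and 8.22 with DSS + MTA, against 8.44, 9.19 and 9.55 with DSS, and 6.63, 7.04, 6.73 and 7.17 in controls. The groups did not overlap, and the difference was -1.47 ± 0.22 (adjusted p = 0.0118). Pecam1, a junction protein of endothelium, was at -0.75 ± 0.19 and Esam, another, at -0.90 ± 0.25, with adjusted p of 0.0894 and 0.125. Of 20 measured general endothelial markers (27 listed), all were below 0 (median -0.63), 19 had an unadjusted p under 0.05, as 8.45% of all features had on the lower side, and 1 fell. That was Emcn, the endothelial sialomucin endomucin, at 8.90 ± 0.31 with DSS + MTA and 9.52 ± 0.17 with DSS (difference -0.62 ± 0.13, adjusted p = 0.0441), a call lost in 13 of the 16 fits with 1 array omitted. The fenestral diaphragm gene Plvap was at -0.96 ± 0.21 and Robo4 at -0.56 ± 0.14, with adjusted p of 0.0587 and 0.0794. Other Robo4 probes, too dim to pass the brightness filter, gave 0.15 and -0.01. The mean of the endothelial list above control was -0.40 to 0.59 on the DSS + MTA arrays, the highest on replicate 2, and 0.38 to 0.97 on the DSS arrays. Its median stayed between -0.73 and -0.56 when any 1 array was left out. Its part in the falls of other genes was not tested.

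Of 21 measured fibroblast and mesenchymal markers (24 listed), 20 were below 0 (median -0.48) and none passed. On the lower side 9 had an unadjusted p under 0.05, as 8.45% of all features had. Their mean above control was -0.13 to 1.08 on the DSS + MTA arrays, the highest on replicate 2, and 0.48 to 1.26 on the DSS arrays, and the part of this difference in the matrix and protease falls was not tested. The stromal membrane protein Pdpn was at -0.92 ± 0.24, and the growth factor receptors Pdgfra and Pdgfrb at -0.83 ± 0.24 and -0.39 ± 0.12. Smooth muscle markers had a median of -0.05 over 17 genes (0.05 without DSS replicate 2, -0.12 without DSS + MTA replicate 2) and none passed. Of them 11 lay below 0 and 6 above it, and caldesmon, Cald1, was the lowest at -0.49 ± 0.24. The 11 of 21 listed enteric neuron and glia markers that passed the filter were below 0 (median -0.28, -0.08 without the filter and -0.18 without DSS + MTA replicate 4). None passed the test, with Elavl4 at -0.39 ± 0.15 and Vip at -0.56 ± 0.32, and 0.02 on another Vip probe that was too dim to pass the filter.

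Genes outside the lists that fell included signalling and transport genes. Ch25h, which makes 25-hydroxycholesterol, had 7.86, 8.42 and 9.27 with DSS + MTA, against 9.31, 9.65 and 10.42 with DSS, and 7.13, 7.47, 7.57 and 7.66 in controls. The groups did not overlap, and the difference was -1.22 ± 0.23 (adjusted p = 0.0315). Scara5, a scavenger receptor that takes up ferritin, had 7.21, 7.69 and 8.44 with DSS + MTA, against 8.2, 9.28 and 9.7 with DSS, and 7.69, 7.92, 7.71 and 7.95 in controls. It fell by -1.28 ± 0.25 (adjusted p = 0.0441) with 4 of 6 DSS + MTA arrays below the lowest DSS array, and 3 of those arrays were below the lowest control value. Gja1, the gap junction protein connexin 43, had the smallest p of all features, at 11.90 ± 0.25 with DSS + MTA and 12.83 ± 0.22 with DSS, against 11.74 ± 0.19 in controls (difference -0.93 ± 0.13, adjusted p = 0.0118). Hgf, the growth factor that stimulates epithelial cells through Met, fell by -0.90 ± 0.14 (adjusted p = 0.0118). Bmper, which binds bone morphogenetic proteins, and Ednrb, the endothelin B receptor, fell by -1.07 ± 0.18 and -1.01 ± 0.20.

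The remaining falls, of 0.55 to 1.08 on the log2 scale, were in 8 genes and 1 unnamed probe. They were Slc10a6, a carrier of sulfated steroids (-1.08 ± 0.21), Lgi2, a secreted leucine-rich repeat protein (-0.96 ± 0.16), and Apod, a lipid-carrying lipocalin (-0.94 ± 0.17). Tmem176b, a membrane protein of dendritic cells (-0.84 ± 0.16), and Antxr1, a collagen-binding receptor of vessels and stroma (-0.80 ± 0.16), fell as well. So did Meox1, a homeobox factor of the mesoderm (-0.63 ± 0.13), Lamp2, a lysosomal membrane protein (-0.56 ± 0.11), and Cfap69, a cilium and flagellum protein (-0.55 ± 0.10). Other Lamp2 probes gave -0.44, -0.16 and -0.25. With 1 array omitted, Lamp2 lost its call in 11 of the 16 fits and Meox1 in 12. Meox1 also lost it with quantile normalization, as did Ccl7 and Serpina3n. The unnamed probe, ILMN_2883164, differed by -0.83 ± 0.16.

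The genes that rose included enzymes of detoxification, an epithelial junction gene and a regulator of membrane traffic, and the DSS mean of all 6 features lay below the control mean. Gsta3, a glutathione transferase of the alpha class, had 9.16, 10.49 and 10.9 with DSS + MTA, against 8.74, 8.89 and 9.28 with DSS, and 10.25, 10.92, 11.04 and 11 in controls. The lowest DSS + MTA value was on replicate 2, inside the DSS range, and the other 5 lay above it. The difference was 1.37 ± 0.24 (adjusted p = 0.0309), or 2.59-fold, and a second Gsta3 probe, too dim to pass the brightness filter, gave 0.19. Dcxr, a reductase of dicarbonyls and xylulose, had 10.22, 10.43 and 10.6 with DSS + MTA, against 9.37, 9.71 and 10.24 with DSS, and 10, 9.97, 10.32 and 10.14 in controls. Replicate 1 of DSS + MTA lay just under DSS replicate 6 and the other arrays did not overlap, with a difference of 0.71 ± 0.13 (adjusted p = 0.0309) and 0.63 on another probe. The unnamed probe ILMN_2692399 had 7.92, 8.14 and 8.2 with DSS + MTA, against 7.13, 7.44 and 7.91 with DSS, and 7.92, 7.55, 7.82 and 7.71 in controls. The treated groups did not overlap, and the difference was 0.64 ± 0.12 (adjusted p = 0.0309).

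Bspry, a B-box protein of epithelial cells, had 9.51, 9.59 and 9.81 with DSS + MTA, against 8.9, 9.24 and 9.31 with DSS, and 9.35, 9.35, 9.29 and 9.32 in controls. Cldn7, a claudin of the lateral membrane and tight junctions, had 10.28, 10.48 and 10.66 with DSS + MTA, against 9.86, 10.02 and 10.21 with DSS, and 10.29, 10.48, 10.32 and 10.32 in controls. Arf6, a small GTPase of membrane traffic and the actin cortex, had 11.26, 11.37 and 11.49 with DSS + MTA, against 10.94, 10.97 and 11.14 with DSS, and 11.23, 11, 11.04 and 11.21 in controls. None of these 3 genes overlapped between DSS + MTA and DSS, and the differences were 0.43 ± 0.08, 0.42 ± 0.08 and 0.36 ± 0.07 (adjusted p = 0.0309, 0.0441 and 0.0461). Bspry and Cldn7 were the 2 of 20 general epithelial markers that rose, in a list with a median of 0.11 (0.06 without the filter or without DSS replicate 5, 0.07 without DSS replicate 3 or DSS + MTA replicate 4). The mean of that list above control was -0.03 to 0.25 on the DSS + MTA arrays and -0.12 to 0.12 on the DSS arrays, and its part in the rises was not tested. The epithelial transcription factor Elf3 was at 0.28 ± 0.08 (adjusted p = 0.118). Of the 16 tight junction and adherens genes, 8 lay below 0 and 8 above it, and only Cldn7 passed. Their median was -0.025, with the same sign in 10 of the 16 fits with 1 array omitted. The claudin Cldn3 was at 0.33 ± 0.09 (adjusted p = 0.127) and Ctnnb1 at -0.182 ± 0.105 (adjusted p = 0.41).

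Detoxifying and mitochondrial genes lay above 0 in most cases with few calls. Of 26 glutathione transferase and synthesis genes, 24 were above 0 (median 0.27, and 0.16 without DSS replicate 2), 9 had an unadjusted p under 0.05 on the higher side and 1 rose. Mgst3 was at 0.51 ± 0.13 and Gstp1 at 0.48 ± 0.15, with adjusted p of 0.0785 and 0.178. Of 37 xenobiotic and steroid enzymes, 29 were above 0 and 1 rose, Dcxr, with a median of 0.20 that was 0.36, 0.11 and 0.10 without DSS + MTA replicates 2, 3 and 6. The cytochrome Cyp3a13 was at 0.51 ± 0.11 (adjusted p = 0.0587) and the steroid dehydrogenase Hsd17b2 at 0.62 ± 0.19. Of 45 respiratory chain genes, 43 were above 0 (median 0.35), 22 had an unadjusted p under 0.05 on the higher side, as 6.50% of all features had, and none passed. The cytochrome oxidase subunit Cox6a1 was at 14.06 ± 0.10 with DSS + MTA and 13.56 ± 0.47 with DSS (difference 0.50 ± 0.17, adjusted p = 0.199), and the ATP synthase subunits Atp5d and Atp5o were at 0.36 ± 0.13 and 0.47 ± 0.18. The mean of the respiratory list above control was -0.27 to 0.06 on the DSS + MTA arrays and -1.10 to -0.12 on the DSS arrays, the lowest on DSS replicate 2, and the list's median was 0.24 without that array. The 19 fatty acid oxidation and ketogenesis genes did not share this direction, with 9 below 0, 10 above it and none past the threshold. Their median was 0.016, with the same sign in 9 of the 16 fits with 1 array omitted. Bdh1, an enzyme of ketone body use, was at 0.54 ± 0.12 (adjusted p = 0.0596) and Acaa2 at -0.38 ± 0.20 (adjusted p = 0.377).

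Of 22 cell cycle and replication genes, 21 were above 0 and none passed. Their median of 0.36 depended on single arrays, at 0.60 without DSS + MTA replicate 2, 0.23 without its replicate 1 and 0.20 without its replicate 4. Rrm2, a ribonucleotide reductase subunit, was at 0.59 ± 0.25 and the replication helicase Mcm7 at 0.61 ± 0.27. The median of 24 ribosomal proteins, none of which passed, was 0.22, with 0.14 without the filter and 0.02 without DSS replicate 2. Absorptive colonocyte markers (23 genes) and goblet cell genes (14 genes) held no gene past the threshold. The colonocyte median of 0.07 ran from -0.02 without DSS replicate 3 to 0.17 without DSS + MTA replicate 2. The goblet median of -0.20 was -0.065 without DSS replicate 2, -0.10 without DSS + MTA replicate 2 and -0.12 without DSS + MTA replicate 4. Of the colonocyte genes 9 lay below 0 and 14 above it. Slc5a8, with the smallest p, was at -0.36 ± 0.15, Car2 at 0.60 ± 0.30 and the water channel Aqp8 at 1.10 ± 0.59. Aqp8 had an SD of 1.63 on the DSS arrays. Of the goblet genes 11 lay below 0 and 3 above it. The goblet peptide Spink4 was at 0.71 ± 0.33, Agr2 at -0.32 ± 0.20 and Muc13 at -0.13 ± 0.09. Of the injury-associated epithelial genes none of 15 passed, and 9 lay below 0 and 6 above it. Their median of -0.15 was 0 without DSS replicate 2, and the highest difference was 0.51. The growth factor Nrg1 was at -1.17 ± 0.27 (adjusted p = 0.068) and the alarmin Il33 at -1.004 ± 0.28 (adjusted p = 0.118).

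**Figure D4:**
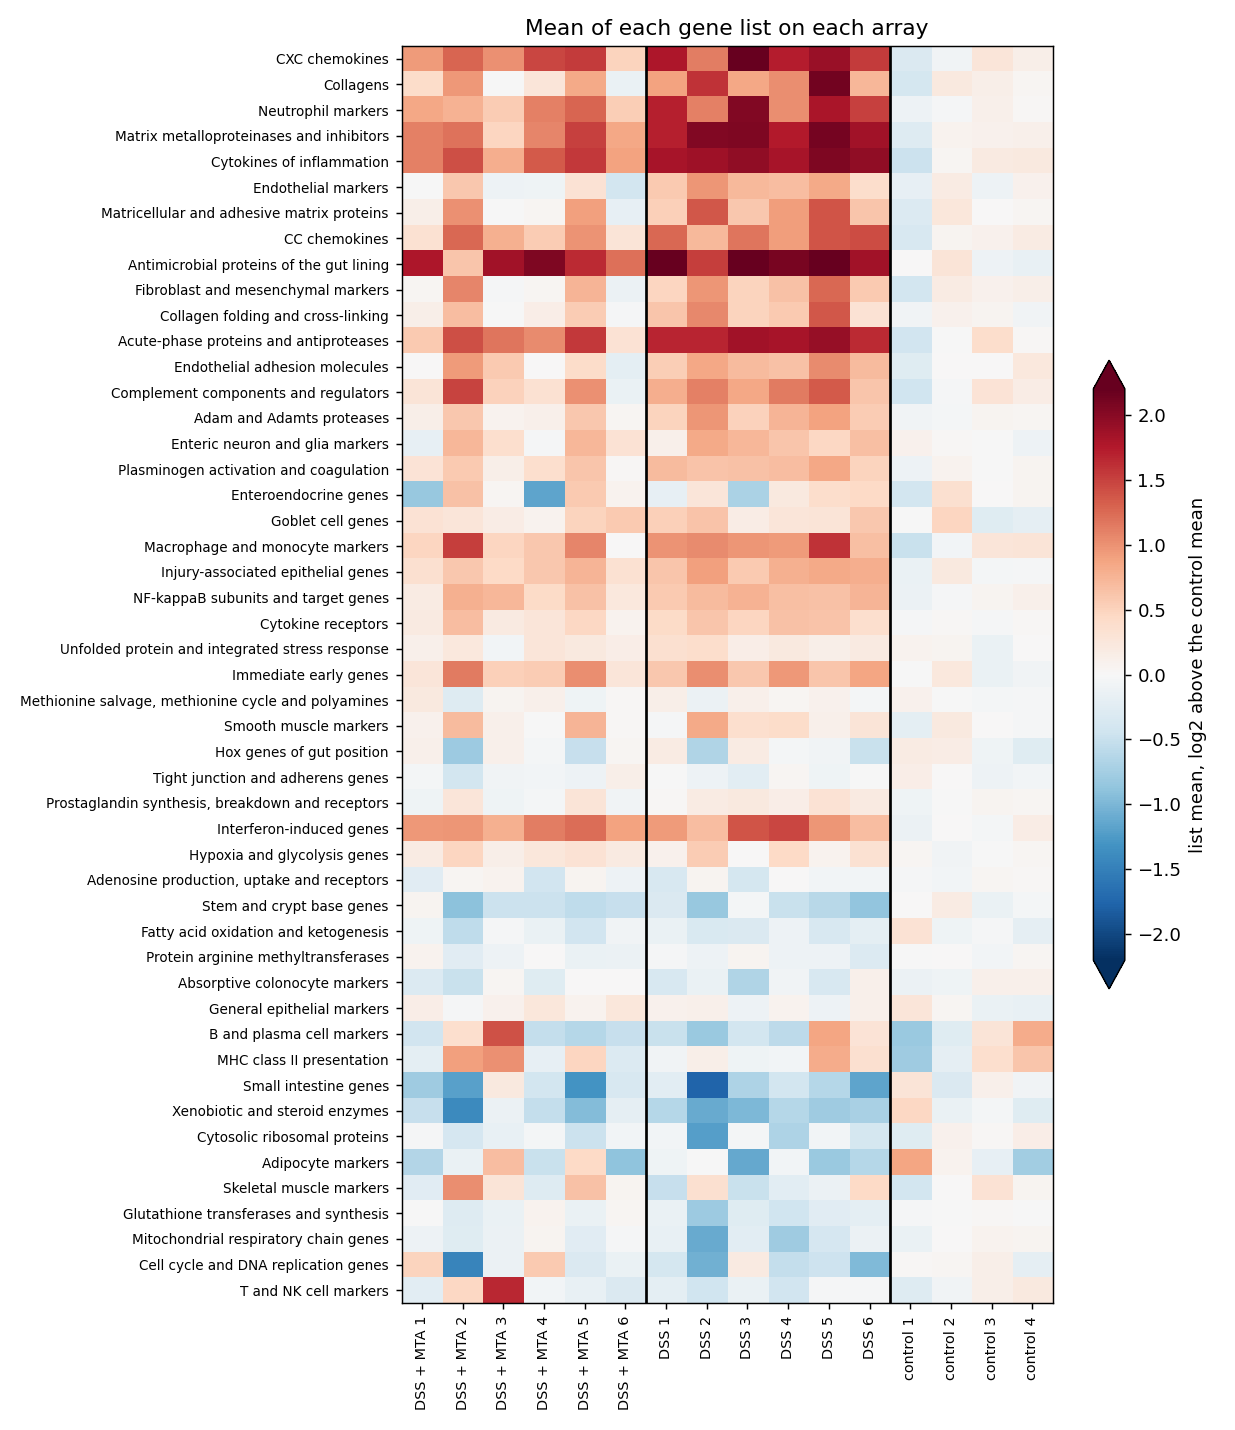
Mean of each gene list on each array, as log2 above the control mean of its genes (red higher, blue lower), with DSS + MTA on the left, DSS in the middle and control on the right. Lists run in the order of their median difference. Metalloproteinases lie at 0.47 to 1.51 on DSS + MTA arrays and 1.71 to 2.11 on DSS arrays, and DSS + MTA replicate 3 stands out in the T and NK cell row at 1.67.

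Genes that handle MTA itself did not pass the test. Mtap had 7.96, 8.06 and 8.38 with DSS + MTA, against 8.06, 8.12 and 8.75 with DSS, with the groups overlapping and a difference of -0.11 ± 0.12 (adjusted p = 0.677). None of the 17 measured genes of methionine recycling and polyamine metabolism passed, and the median was -0.06 (0.02 without DSS + MTA replicate 2, -0.10 without DSS replicate 3 or 6). The smallest p belonged to Smox, which oxidises spermine (-0.28 ± 0.12), Mat2b, a regulator of methionine adenosyltransferase (-0.22 ± 0.09), and Got1, a transaminase (0.27 ± 0.12), with adjusted p of 0.2797, 0.281 and 0.313. Other Mat2b probes gave 0.01 and -0.06. Of 10 genes of protein arginine methyltransferases and their regulators none passed, with Prmt5 at 0.21 ± 0.14 and Prmt2 at -0.20 ± 0.11. Other Prmt5 probes gave -0.18 and 0.17, so its probes differ in direction. Of 8 genes of adenosine production, uptake and receptors none passed, 4 lay below 0 and 4 above it, with a median of 0.009. The nucleotidase Entpd5 was at 0.36 ± 0.17 and the nucleoside carriers Slc29a1 and Slc29a2 at 0.10 ± 0.09 and 0.08 ± 0.07. These arrays measured RNA and not MTA or its products.

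The number of calls depended on single arrays. Without DSS + MTA replicates 1 to 6 in turn, 11, 189, 8, 19, 49 and 5 features fell and 1, 26, 0, 0, 6 and 0 rose. Without DSS replicates 1 to 6, 17, 8, 10, 17, 8 and 75 fell and 3, 0, 2, 1, 0 and 30 rose, and without control replicates 1 to 4, 20, 14, 10 and 19 fell and 4, 3, 1 and 4 rose. Without DSS + MTA replicates 2 and 3 together, an alternative chosen after the data were seen, 44 fell and 2 rose, and 19 of the 31 and 2 of the 6 were among them. Gja1, Adamts4, Hgf, Inhbb and Selp passed in all 16 fits that left out an array. The other 32 lost their call at least once, and 24 of the 37 lost it in 8 or more of the 16 fits. Mmp3 lost its call without DSS + MTA replicate 6, Cp without DSS + MTA replicate 3 or 6, and Mmp10 in 5 fits. Chil3 lost it in 8 fits, Gsta3 and Bspry in 9, Ch25h in 10, Ccl2 in 12, and Ccl11, Serpina3n, Col18a1, Scara5, Clec4d, Ednrb, Emcn and Cldn7 in 13. Arf6 and Ccl7 lost it in 14. All 37 features kept the sign of their difference in each of these fits, which their choice on the same arrays nearly fixes. With only the 12 treated arrays in the fit, limma called 0 features at a smallest adjusted p of 0.09, and 1235 had an unadjusted p under 0.05 (718 lower and 517 higher).

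Replicates 1 to 3 and 4 to 6 of both treated groups stand apart in the list of samples. The 37 features had the same sign in both parts. They were chosen by the contrast over these same arrays, which nearly fixes a shared sign, so it is a description. Sizes differed, with Mmp10 at -2.95 in replicates 1 to 3 and -1.41 in replicates 4 to 6, Chil3 at -2.09 and -0.96, Ccl2 at -1.89 and -0.88, Gsta3 at 0.97 and 1.77, and Selp at -1.46 and -1.48. With 3 arrays a group, limma called 0 features within replicates 1 to 3 (458 with an unadjusted p under 0.05) and 0 within replicates 4 to 6 (1018).

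**Figure D5:**
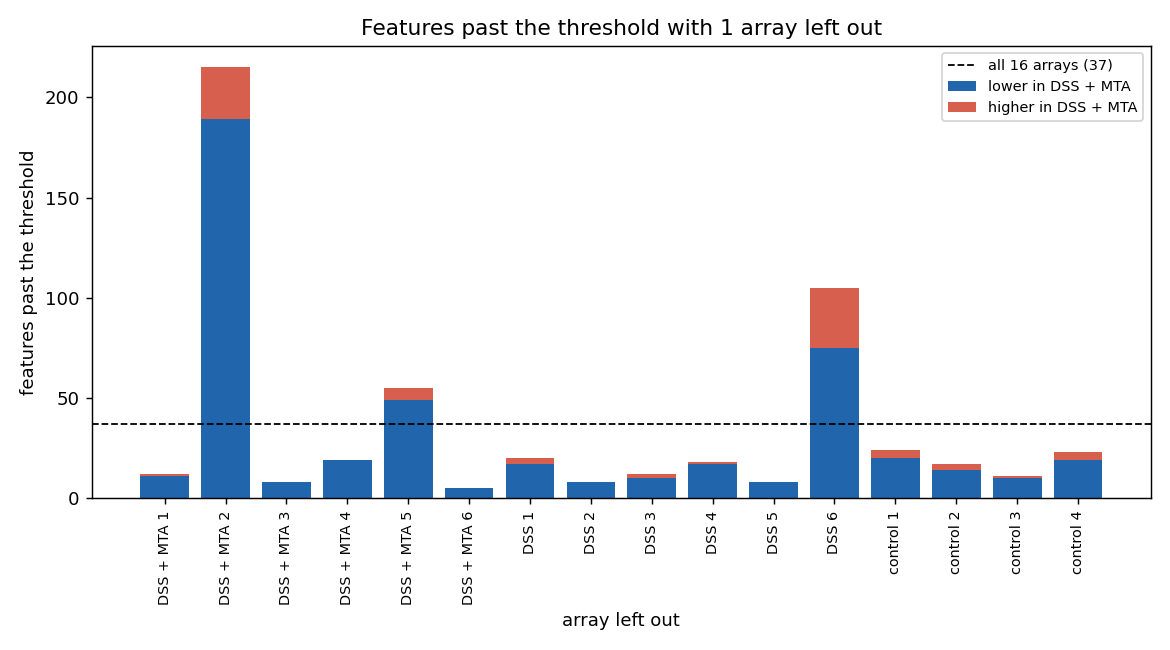
Number of features past the threshold when 1 array is left out, split into lower and higher in DSS + MTA, with a dashed line at the 37 found with all 16 arrays. The total is highest without DSS + MTA replicate 2, with 189 lower and 26 higher, and lowest without DSS + MTA replicate 6, with 5 lower and 0 higher.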

How the data were processed

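Total RNA of 16 whole-colon samples was labelled as biotinylated cRNA and hybridised to Illumina bead arrays, per the labels' protocols. The deposited values are the authors' probe intensities on a linear scale (25697 probes, 42.017 to 41634), and how they were normalized is not given in the sources used here. Log2 of these deposited intensities was taken here with no further normalization. The 32 un-normalized columns are named by chip position and were not used, so no detection p-value entered and the chip could not be tested as a batch.

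The platform annotation gave 23978 probes 1 gene symbol, 0 several and 1719 none. RefSeq (GRCm38.p6) held 23962 of the symbols' identifiers and changed 0. The upper 50% of probes by mean were kept (12849, from a mean log2 of 6.82), and the brightest probe stood for a gene, which left 9771 features, 9057 of them named. limma 3.58.1 in R 4.3.3 (lmFit, eBayes, 3 group means over 16 arrays) tested DSS + MTA minus DSS, 2-sided, with Benjamini-Hochberg adjustment over all features. Errors beside differences are standard errors of the fit, and errors beside levels are SDs. Values given for other probes of a gene include probes too dim to pass the filter. The steps were tested on simulated data. The number of arrays limits the precision.

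The text names every gene past the threshold, Mtap, and up to 3 genes with the smallest p of most of 52 lists (1116 genes, 738 measured). The skeletal muscle, adipocyte, enteroendocrine, red blood cell and pancreatic lists are not described. Members of the B and plasma cell list are not named. No gene of these lists passed the threshold. Values per array are given for the 12 largest falls and all rises. Samples, lists and rules were chosen with earlier results of these data known. Alternatives covered probe filters, background, normalization, the samples in the fit, blocks, array weights, a variance trend, a smooth muscle covariate and single arrays left out. Figures were drawn with matplotlib 3.10.9 in Python 3.11.15.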

Additional observations from a re-analysis of the deposited data

Results flagged for a closer look

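For each named gene, the highest and the lowest array of each group were set against the rest of the group by Dixon's ratio (limits 0.829 for 4 arrays and 0.625 for 6). Of 501 groups tested, 24 held an array that far out, where chance alone gives about 5%. Among genes that fell or rose, these were Bmper at 7.52 on DSS replicate 6, Ch25h at 10.42 on DSS replicate 2, Gsta3 at 10.25 on control replicate 1, Cldn7 at 10.48 on control replicate 2 and Ccl2 at 6.11 on control replicate 3. On DSS + MTA arrays, Cidea stood at 11.02 on replicate 3, Atp5o at 10.48 on replicate 4 and Rpl19 at 11.11 on replicate 5. On DSS arrays, Sgca (7.09) and Elavl4 (6.84) stood out on replicate 1, Psmb10 (12.12) and Mtap (8.75) on replicate 2, Ptges (8.83) on replicate 3, H2-DMa (9.98) on replicate 5, and Rbp2 (8.12) and Entpd5 (11.23) on replicate 6. On control arrays, Col3a1 (8.32), Cxcl5 (5.73), Il11 (6.49), Ctnnb1 (13.54) and Rpl38 (13.8) stood out on replicate 1, Ptger2 (7.42) on replicate 2, Cox6a1 (14.22) on replicate 3 and Gbp5 (7.05) on replicate 4. Control replicate 1 held 6 of the 24, and DSS replicates 2 and 6 held 3 each.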

How the results depend on the processing

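The signs of all 37 features were kept in each alternative that tested them (17 of them among the upper 25% of probes), while the number of calls varied. Since the features were chosen on the same arrays, their kept sign is a description. With 31 lower and 6 higher as reported, the upper 25% of probes gave 5 and 3, and the block by run of sample numbers (replicates 1 to 3 against 4 to 6) gave 17 lower. Array weights gave 198 and 26, and the smooth muscle covariate 218 and 43. Only the 2 groups compared gave 0 and 0, as did replicates 1 to 3 alone and replicates 4 to 6 alone. Left-out arrays gave 5 to 189 lower and 0 to 30 higher, and DSS + MTA replicates 2 and 3 left out together, chosen after the data were seen, gave 2 higher. Keeping dim probes, using every probe, quantile normalization, normexp and a variance trend kept both counts within 1.5 times. The members changed, however. With dim probes kept, 21 fell, and 18 of the 31 were among them. Ccl2, Ccl7, Ccl11, Serpina3n, Col18a1, Scara5, Clec4d, Emcn and Ednrb were among the genes that lost their call there. Quantile normalization kept 28 of the 31. With the replicate number as a block, 226 fell and 27 rose. Deviations of equally numbered DSS + MTA and DSS arrays correlated at 0.625, 0.487, -0.02, -0.003, 0.013 and 0.21 for numbers 1 to 6, and only numbers 1 and 2 matched their own partner best, so the numbers are not taken to pair samples. Without a probe filter, list medians were -0.36 for CXC chemokines, -0.18 for inflammatory cytokines and -0.11 for neutrophil markers. The median of the B and plasma cell list was 1.15 in replicates 1 to 3 and -0.73 in replicates 4 to 6. The causes were not tested. Dim probes limit the sizes of falls towards control levels.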

Other observations

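Some lists outside the comparisons above held no gene past the threshold. Of 15 immediate early genes, Dusp1, a phosphatase that switches off MAP kinases, was at 11.48 ± 0.30 with DSS + MTA and 12.28 ± 0.45 with DSS (SD, n = 6 each), without overlap (difference -0.80 ± 0.18, limma adjusted p = 0.0655), and the transcription factor Egr2 at -0.60 ± 0.19, while Jund, an AP-1 subunit, was at 0.48 ± 0.15. Of 11 prostaglandin genes, 8 were below 0 and 3 above it, with a median of -0.02. The synthase Ptges was at -0.56 ± 0.19 and the receptor Ptger2 at -0.50 ± 0.15. Of 21 genes of the unfolded protein and integrated stress response, 13 were below 0, with the disulfide isomerases Pdia6 at -0.28 ± 0.09 and Pdia3 at -0.26 ± 0.09. Of 19 hypoxia and glycolysis genes, 9 were below 0 and 10 above it, with a median of 0.008. The glycolytic genes Pkm and Gapdh were at 0.33 ± 0.12 and 0.18 ± 0.08 (adjusted p = 0.218 and 0.284). Rbp2, a retinol-binding protein of absorptive cells of the small intestine, was at 8.13 ± 0.28 with DSS + MTA and 7.44 ± 0.34 with DSS (difference 0.69 ± 0.17, adjusted p = 0.0772).

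Hoxa7, Hoxb2 and Hoxd8, homeobox genes of gut position, were at 0.92 ± 0.44, -0.21 ± 0.11 and -0.52 ± 0.40, and none of 19 such genes passed. Lrig1 and Lgr5, genes of the crypt base, were at -0.38 ± 0.12 and 0.37 ± 0.24.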
